A study of Mus musculus with 4 samples.

Results

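Immediate early genes are transcribed within minutes of a stimulus from promoters that need no new protein synthesis, and most encode transcription factors that carry the response to later genes. In neurons they follow synaptic activity and calcium entry, and in dividing cells they follow serum and growth factors. Npas4 differs from the rest in being largely restricted to neurons, and RE1 Silencing Transcription Factor (REST), the product of the Rest gene, is a repressor of neuronal genes that binds a DNA element named RE1. The RNA of 10 such genes was compared between WT and REST-/- mouse embryonic stem cells (ESCs): Npas4, Fos, Fosb, Jun, Junb, Egr1, Egr2, Egr3, Arc and Ier2. They were taken by symbol from a table of 26301 genes, all 10 were found, and 9 passed the filter on low counts (Egr3 did not).

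The WT cells were the ESC line N6 and the REST-/- cells the line N8, 1 line per genotype, so that differences between the lines other than REST cannot be told apart from the genotype. Both were grown in serum with Leukemia Inhibitory Factor (LIF) on irradiated fibroblast feeders and then passaged on gelatin to remove the feeders, and the protocol names no stimulus. Each genotype had 2 biological replicates, with 30953863 and 27061056 counts on genes in WT replicates 1 and 2 and 25461270 and 22293966 in those of REST-/-. Pairs of values are given in this order throughout. Levels are given as CPM, the counts of a gene scaled to the size of its library after TMM normalization, and changes as the log2 fold change of REST-/- over WT from edgeR's quasi-likelihood test, with p-values adjusted by the Benjamini-Hochberg method over all 15444 tested genes. Rest itself drew 7908 and 6233 counts in WT replicates 1 and 2 against 4244 and 3890 in those of REST-/-. Its log2 fold change was -0.52 (SE 0.13), and the p after adjustment was 0.526 (edgeR, quasi-likelihood). Counts summed over a gene do not show which exons were read. The summed level of 10 pluripotency markers lay between 5040 and 5662 CPM in the 4 libraries, and Pou5f1, their defining marker, lay between 670 and 751 CPM. Within this list Zfp42 was lower in REST-/- ESCs, at 705 and 541 CPM in WT against 258 and 226 CPM (log2 fold change -1.36, SE 0.18), a difference that DESeq2 and both exact tests called and the quasi-likelihood test did not. Nanog was at -0.46 (SE 0.12), with both REST-/- libraries below both WT libraries. Of the 10 pluripotency markers 6 had a positive and 4 a negative log2 fold change, with a median of 0.023. The highest were Lin28a at 0.38 (SE 0.30), Tfcp2l1 at 0.20 (SE 0.17) and Utf1 at 0.19 (SE 0.14). The summed level of 10 neural progenitor and neuron markers was 255 and 361 CPM in WT and 319.5 and 387 CPM in REST-/- libraries. Of these 7 were tested and 6 had a positive log2 fold change, with a median of 0.094, against 49.2% of all tested genes. None had an unadjusted p under 0.05, against 6.71%. Rbfox3 was highest at 1.29 (SE 0.61) and Pax6 lowest at -0.75 (SE 0.39), both without overlap of the groups. The summed level of 10 feeder fibroblast markers was 28.5 and 20.1 CPM in WT replicates 1 and 2, 97.8 CPM in REST-/- replicate 1 and 21.5 CPM in REST-/- replicate 2. REST-/- replicate 1 stood apart, with Col1a1 at 46.1 and Col1a2 at 28.5 CPM, each the highest of the 4 libraries. Of this list 8 were tested and 7 had a positive log2 fold change, with a median of 1.74, and 2 had an unadjusted p under 0.05, against 6.71% of all tested genes. None passed the threshold in the quasi-likelihood test, in DESeq2 or in the exact test with tag-wise dispersion, while the exact test with common dispersion called 5 (Col1a1, Col1a2, Col3a1, Postn and Prrx1), against 2.22% of all tested genes. The 2 with an unadjusted p under 0.05 were Twist2 at 1.87 (SE 0.54) and Pdgfrb at 1.26 (SE 0.35), with both REST-/- libraries above both WT libraries. Twist2 drew 8 and 4 counts in WT and passed the filter on low counts through the REST-/- libraries alone. Thy1 lay between 5.46 and 7.06 CPM in all 4 libraries, and Lum was at 0 counts in all 4. Among 10 primitive endoderm markers, 9 had a positive log2 fold change, with a median of 0.71, against 49.2% of all tested genes. None of them passed the threshold of 0.05 in the quasi-likelihood test, 5 had an unadjusted p under 0.05 against 6.71% of all tested genes, and DESeq2 called 3 against 1.54%, with Cubn and Pdgfra higher and Hnf4a lower in REST-/- ESCs. Each exact test called 4 of this list, with Gata6, Cubn and Pdgfra higher and Hnf4a lower in REST-/- ESCs. Over all tested genes the share was 1.51% with tag-wise and 2.22% with common dispersion.

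The sequences given for these genes are RE1 matches, which all 10 members were searched for and which Npas4 holds inside the gene. They are matches of letters alone, and REST binding was not measured in the RNA libraries used here. The motif searched was CAGNACCNNGGACAG, on both strands of mm9, where N is any base and 12 positions are informative. Npas4 lies on the minus strand of chromosome 19 from 4984355 to 4989971, and 3 matches stand close together in its intron 1. Here they are written on the minus strand, that of the gene, at chr19:4989113-4989229, with each match in capitals. The matches lie on the plus strand, so that the motif reads here as its reverse complement.

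Npas4 intron 1: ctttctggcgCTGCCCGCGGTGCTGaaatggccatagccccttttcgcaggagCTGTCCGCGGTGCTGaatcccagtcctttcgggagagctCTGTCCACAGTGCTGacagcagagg

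The middle match carried all 12 informative positions, with its midpoint 802 bp after the annotated start, and the outer pair carried 11 of 12. A further match to 12 positions lay at -2592 bp, upstream of the start, and one to 11 positions lay in an exon at 1819 bp. Read on the strand of the motif, with the matching informative positions in capitals, the sites were as follows.

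Npas4, chr19:4989123-4989137: CAGcACtgtGGACAG
Npas4, chr19:4989162-4989176: CAGcACCgcGGACAG
Npas4, chr19:4989205-4989219: CAGcACCgcGGgCAG
Npas4, chr19:4992556-4992570: CAGcACCacGGACAG

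**Figure D1:**
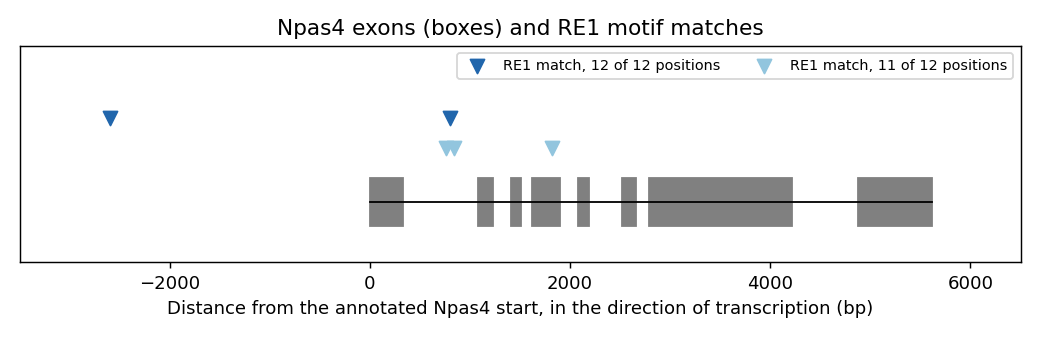
Exons of Npas4 (boxes) and RE1 motif matches (triangles) by distance in bp from the annotated start, in the direction of transcription. The match to all 12 positions at 802 bp and the pair to 11 positions beside it fall between the first and second exons, and the other match to 12 positions stands at -2592 bp.

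A match to all 12 positions lay within 20000 bp of an annotated start for Npas4 and Arc and for no other member, against 4.43% of the 14190 tested genes that could be placed in the annotation. Arc had a pair of such matches, at 13400 bp and -13298 bp from its start. The first has the same letters as the upstream Npas4 site, and the other differs from it at uninformative positions, which are in lower case.

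Arc, chr15:74489575-74489589: CAGcACCacGGACAG
Arc, chr15:74516291-74516305: CAGcACCttGGACAG

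With 1 mismatch allowed, Fos, Fosb, Junb and Egr1 also had a match within this distance, but so did 44.2% of the placed genes. The nearest of these was that of Fosb, at -1888 bp from its start.

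Fosb, chr7:19897275-19897289: CAGgACCctGGcCAG

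In the quasi-likelihood test, 0 of the 9 tested members fell below an adjusted p of 0.05 (edgeR), against 0.0583% of all tested genes, which is 9 genes (0.0518% higher and 0.00648% lower in REST-/- ESCs). With an unadjusted p under 0.05, 2 of the 9 members passed, Npas4 and Junb, against 6.71% of all tested genes. DESeq2 and edgeR's exact test with tag-wise or with common dispersion each called 1 member, Npas4, against 1.54% of all tested genes in DESeq2 and 1.51% and 2.22% in the exact tests. The quasi-likelihood test without the filter on low counts also called Npas4, against 0.257% of the genes it tested. Both REST-/- libraries lay above both WT libraries for Npas4, Fosb and Junb, against 16.5% of all tested genes, and both lay below for Ier2, against 15.4%. The fitted log2 fold changes of the 9 tested members had a median of 0.32, against -0.0047 for all tested genes. Egr3 was not part of this median. Without REST-/- replicate 1, the library with the highest fibroblast signal, the median over the 9 members fitted was -0.16, so its sign was not stable. That fit leaves WT replicate 1 without a library of the same number, and the part of this in the change of sign was not tested. Between the libraries numbered 2, the log2 ratios of CPM had both signs, from -0.92 for Egr2 to 5.06 for Npas4.

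**Figure D2:**
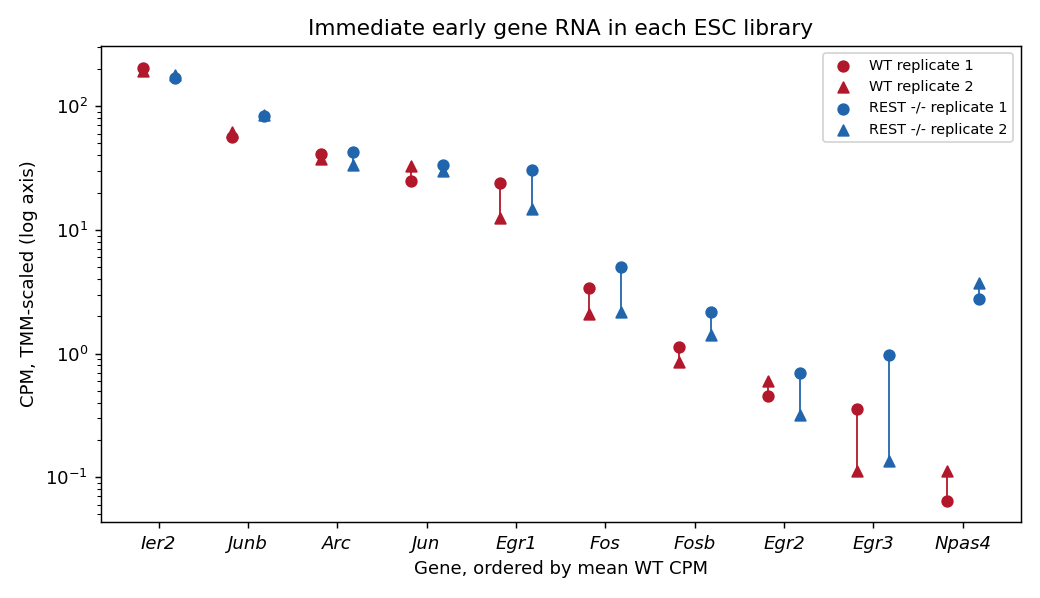
CPM of each member in each library, on a log axis, with WT in red, REST-/- in blue, circles for replicate 1 and triangles for replicate 2. Npas4 goes from at most 0.112 CPM in both WT libraries to between 2.75 and 3.75 CPM in the REST-/- libraries, while for most other members the 2 genotypes overlap or lie close together.

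Npas4 encodes a bHLH-PAS transcription factor that acts as a dimer with an ARNT protein. It drew 2 and 3 counts in WT replicates 1 and 2 against 71 and 83 in those of REST-/-. WT libraries were at or below the floor of 3 counts, under which a gene was not taken as detected, and the REST-/- libraries did not overlap with them. A few cells with much Npas4 RNA and many cells with little cannot be told apart in such bulk libraries. In CPM this was 0.0883 ± 0.0335 (SD, n = 2) in WT and 3.25 ± 0.706 (SD, n = 2) in REST-/- ESCs. The ratio of the summed counts, scaled to library size, was 37.1, with an exact 95% interval of 15.5 to 116 that covers counting error alone. The fitted log2 fold change was 5.15 (SE 0.52, 95% interval 3.76 to 6.53), and its p was 0.109 after adjustment (edgeR, quasi-likelihood). Npas4 passed the filter on low counts through the REST-/- libraries alone. The log2 ratio of CPM was 5.41 between the libraries numbered 1 and 5.06 between those numbered 2.
The call for Npas4 depended on the test. Its adjusted p ranged from 4.2e-13 (edgeR's exact test with common dispersion) to 0.114 (the quasi-likelihood test scaled to library size alone) over the 12 alternatives that could be fitted. It was 1.7e-06 in DESeq2 and 6.5e-09 in edgeR's exact test with tag-wise dispersion. When any 1 of the 4 libraries was left out, its log2 fold change lay between 4.79 and 5.55 and its adjusted p between 0.0148 and 0.0417 in the quasi-likelihood test. One genotype then has a single library, which is assumed to vary as the libraries of the other genotype do, so these values are no added support.

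Fos and Fosb encode leucine-zipper proteins that pair with JUN proteins to form the AP-1 transcription factor. Fos, on chromosome 12 from 86814840 to 86818223, drew 105 and 56 counts in WT replicates 1 and 2 against 129 and 48 in those of REST-/-. The spread between libraries of one genotype was wider than the difference between genotypes, and the groups overlapped. Its level was 2.74 ± 0.920 CPM in WT and 3.58 ± 2.00 CPM in REST-/- ESCs (SD, n = 2 each). The fitted log2 difference was 0.39 (SE 0.54, 95% interval -1.04 to 1.81). Without REST-/- replicate 1 it was -0.34.
Fosb, on chromosome 7 from 19888070 to 19895394, drew 35 and 23 counts in WT replicates 1 and 2 against 56 and 31 in those of REST-/-. In CPM the lower REST-/- library, at 1.40, was above the higher WT library, at 1.13. The log2 fold change was 0.84 (SE 0.42, 95% interval -0.28 to 1.96), and its p was 0.911 after adjustment (edgeR, quasi-likelihood). The interval holds both no change and a change of nearly 2 on the log2 scale. Without REST-/- replicate 1 the value was 0.49, and without REST-/- replicate 2 it was 1.11.

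Jun and Junb encode the partners of the FOS proteins, and JUNB can also restrain JUN. Jun, on chromosome 4 from 94715725 to 94718913, had 24.9 and 32.7 CPM in WT and 33.6 and 30.2 CPM in REST-/- libraries. The groups overlapped, and the log2 fold change of 0.15 (SE 0.21, 95% interval -0.41 to 0.71) became -0.042 without WT replicate 1. Jun overlaps the transcript BC042782 of the opposite strand, and strand is not stated for the counting, so reads of the pair were not told apart.
Junb, on chromosome 8 from 87500811 to 87502617, had 56.3 and 61.6 CPM in WT and 83.6 and 84.7 CPM in REST-/- libraries. Its groups did not overlap, and libraries of one genotype lay close together. The log2 fold change was 0.51 (SE 0.14, 95% interval 0.15 to 0.88), and its p was 0.0162 before and 0.581 after adjustment (edgeR, quasi-likelihood).

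Egr1, Egr2 and Egr3 encode zinc-finger factors that bind GC-rich sites and are held in check by the NAB corepressors. Egr1, on chromosome 18 from 35020861 to 35024638, drew 735 and 337 counts in WT replicates 1 and 2 against 791 and 328 in those of REST-/-. Replicate 1 was well above replicate 2 in both genotypes, and the groups overlapped. Its log2 fold change was 0.32 (SE 0.49, 95% interval -0.98 to 1.62), and it turned to -0.063 without WT replicate 2 and to -0.29 without REST-/- replicate 1. Egr1 overlaps Gm17507 of the opposite strand.
Egr2, on chromosome 10 from 66998223 to 67004936, drew 14 and 16 counts in WT replicates 1 and 2 against 18 and 7 in those of REST-/-. REST-/- ESCs held both the highest and the lowest value, and the log2 fold change was -0.033 (SE 0.57, 95% interval -1.54 to 1.47). It was -0.72 without REST-/- replicate 1 and turned to 0.40 without REST-/- replicate 2 and to 0.18 without WT replicate 2. Egr3, on chromosome 14 from 70477252 to 70479964, drew 11 and 3 counts in WT replicates 1 and 2 against 25 and 3 in those of REST-/- and was not tested. Replicate 2 of both genotypes was at the floor of 3 counts. In the fit without a filter on low counts its log2 fold change was 1.21 (SE 1.04), and its p was 0.998 after adjustment (edgeR, quasi-likelihood).

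Arc encodes a protein of the synapse that is related to retrotransposon Gag proteins and moves its own RNA between cells. It lies on chromosome 15 from 74499513 to 74503000, and it drew 1282 and 1004 counts in WT replicates 1 and 2 against 1104 and 742 in those of REST-/-. Scaled to library size the groups overlapped, at 41.4 and 37.5 CPM in WT and 42.7 and 33.5 CPM in REST-/- ESCs. The fitted log2 difference was -0.049 (SE 0.19, 95% interval -0.56 to 0.46), so that a doubling or halving, that is a log2 change of 1 in either direction, lay outside the interval. It turned to 0.018 without WT replicate 1 and to 0.11 without REST-/- replicate 2. Arc was thus the member with a pair of full RE1 matches, farther from its start than those of Npas4, for which no difference was detectable.
Ier2, which encodes a nuclear protein of the growth-factor response, lies on chromosome 8 from 87185230 to 87186751. It had 205 and 194 CPM in WT and 169 and 178 CPM in REST-/- libraries, and the REST-/- values were both below the WT values. The log2 fold change was -0.20 (SE 0.12, 95% interval -0.53 to 0.12).

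**Figure D3:**
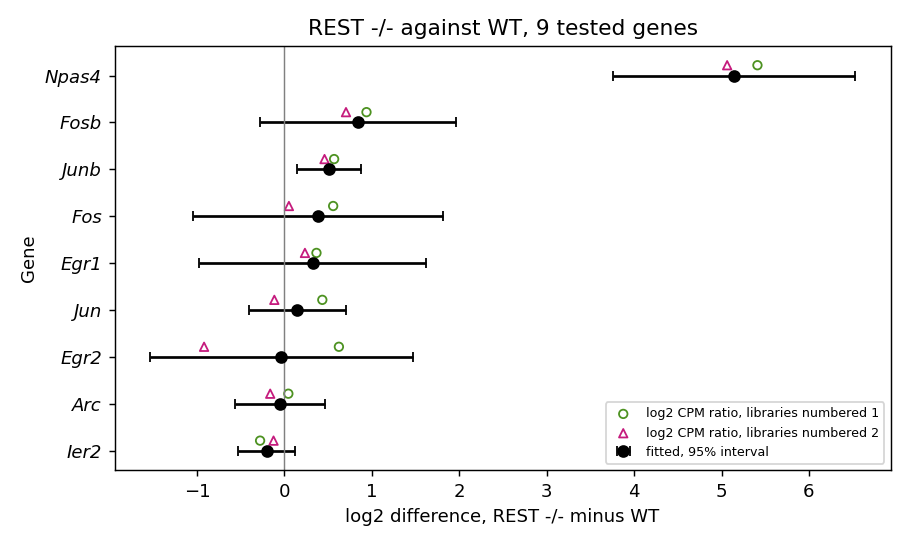
Fitted log2 fold change of REST-/- over WT with its 95% interval for the 9 tested members (black), and the log2 ratio of CPM between the libraries numbered 1 (green circles) and 2 (magenta triangles). The intervals of Npas4 (3.76 to 6.53) and Junb (0.15 to 0.88) lie above 0, without adjustment for the number of genes, and the other 7 hold 0.

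Levels of different genes were compared as CPM per kilobase of annotated exon. In WT ESCs the order was Ier2 (131 ± 5.33), Junb (32.6 ± 2.08), Arc (12.9 ± 0.908), Jun (9.03 ± 1.74), Egr1 (5.86 ± 2.55), Fos (1.17 ± 0.391), Fosb (0.265 ± 0.0512), Egr3 (0.159 ± 0.117), Egr2 (0.154 ± 0.0302) and Npas4 (0.0270 ± 0.0102), all as mean ± SD of 2 libraries. Fosb overlapped with Egr3 and Egr3 with Egr2, while all other neighbours lay apart. Arc RNA, which is best known from neurons, was thus present in ESCs at a level per length above that of Jun in both WT libraries. In REST-/- ESCs the first 6 genes kept this order, and Npas4 moved from rank 10 to rank 7 with 0.991 ± 0.216 CPM per kilobase (SD, n = 2). There it overlapped with Fos, at 1.52 ± 0.850, and lay above Fosb, at 0.475 ± 0.145, in CPM per kilobase. Jun and Egr1 also overlapped in REST-/- ESCs.

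For Egr1 and Fos, libraries of the same genotype differed by more than same-numbered libraries of the 2 genotypes did. On the scale of log2(CPM + 0.5), Egr1 was higher in replicate 1 than in replicate 2 by 0.89 in WT and by 1.02 in REST-/- ESCs. Fos was higher by 0.59 and 1.04, Egr3 by 0.48 and 1.21, Fosb by 0.26 and 0.49, and Arc by 0.14 and 0.35. These 5 members were higher in the replicate numbered 1 in both genotypes, whereas Npas4 and Junb were lower there. Among all tested genes, 41.8% were higher in the libraries numbered 1 in both genotypes, and 4.27% differed in this direction by at least 0.89 in both, as Egr1 did. The share was 9.84% at the size of the Fos difference, 22.5% at that of Fosb and 30.1% at that of Arc.
Heat shock genes, which respond to handling and stress, gave values beside these. Of 10 such genes, 7 were higher in the libraries numbered 1 of both genotypes, and none differed between genotypes with an unadjusted p under 0.05 in the quasi-likelihood test or an adjusted one in DESeq2. Hspa1a drew 89 and 41 counts in WT replicates 1 and 2 against 153 and 47 in those of REST-/-, and Hspa1b drew 248 and 131 counts in WT replicates 1 and 2 against 370 and 136 in those of REST-/-. Both were thus higher in replicate 1 of each genotype, as Fos and Egr1 were, with the highest value in REST-/- replicate 1. Of the 10 heat shock genes 5 had a positive and 5 a negative log2 fold change. The lowest were Dnajb1 at -0.29, Hmox1 at -0.28 and Hspa8 at -0.21. For these 3 both REST-/- libraries lay below both WT libraries, against 15.4% of all tested genes. Hspa8 was lower in replicate 1 than in replicate 2 of both genotypes. Postn, a fibroblast marker, drew 19 and 2 counts in WT replicates 1 and 2 against 87 and 5 in those of REST-/-, and Col3a1 drew 39 and 22 counts in WT replicates 1 and 2 against 187 and 17 in those of REST-/-. Of the 8 tested fibroblast markers 6 were higher in replicate 1 of both genotypes, and the part of stress or fibroblast RNA in the values of the members was not tested. Npas4 had 2.75 CPM in REST-/- replicate 1 and 3.75 CPM in REST-/- replicate 2.

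**Figure D4:**
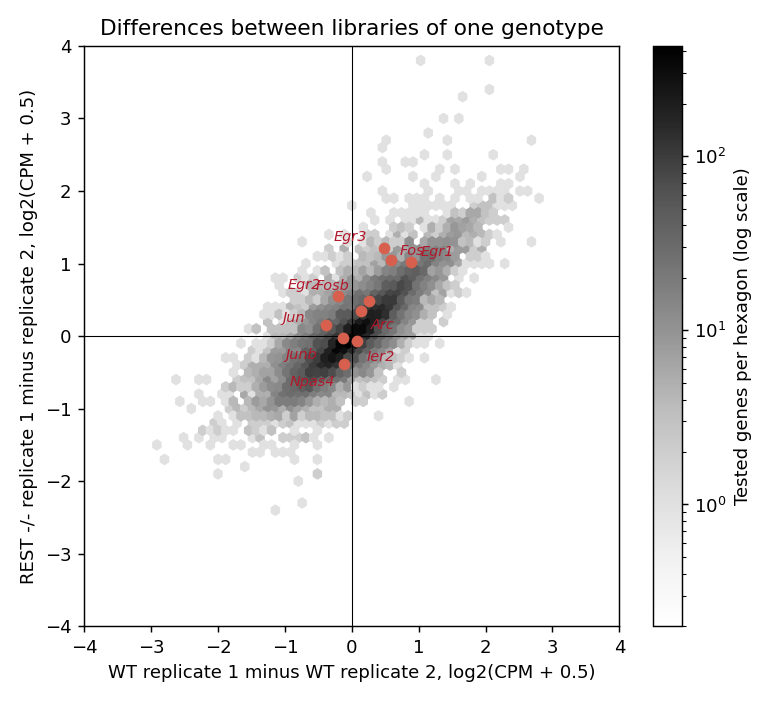
Difference of log2(CPM + 0.5) between replicates 1 and 2 within WT (horizontal axis) and within REST-/- ESCs (vertical axis), with all tested genes in grey by number per hexagon and the 10 members as red points. Fos, Egr1 and Egr3 stand in the upper right, higher in replicate 1 of both genotypes, and Npas4 and Junb stand to the lower left of the origin.

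The members were set beside 40 other primary response genes, of which 39 were tested. None passed the threshold in edgeR's quasi-likelihood test, against 0.0583% of all tested genes, and 10 had an unadjusted p under 0.05, against 6.71%. DESeq2 called 2 (Cyr61 and Klf2), against 1.54%, and each form of edgeR's exact test called 2 (Egr4 and Cyr61), against 1.51% and 2.22%. The log2 fold change was positive for 33 of the 39, with a median of 0.25, whereas 49.2% of all tested genes were positive, with a median of -0.0047. Both REST-/- libraries lay above both WT libraries for 15 of the 39 and below for 3, against 16.5% and 15.4% of all tested genes.
The largest positive value was that of Egr4, the fourth member of the EGR family, which drew 6 and 6 counts in WT against 33 and 23 in REST-/- replicates. Like Npas4, Egr4 passed the filter on low counts through the REST-/- libraries alone. Its log2 fold change was 2.45 (SE 0.45), and its p was 0.319 after adjustment (edgeR, quasi-likelihood). Cyr61, a secreted matricellular protein of the serum response, had 30.9 and 56.2 CPM in WT and 98.1 and 123.9 CPM in REST-/- libraries, a log2 fold change of 1.35 (SE 0.34). Atf3, a stress-induced partner of JUN proteins, had 4.13 and 6.98 CPM in WT and 11.1 and 14.7 CPM in REST-/- libraries, a log2 fold change of 1.22 (SE 0.37). For all of these the groups did not overlap.
The lowest values were those of Klf2, Klf4 and Jund. Klf2 and Klf4, which in ESCs are part of the pluripotency network, had log2 fold changes of -0.84 (SE 0.13) and -0.44 (SE 0.14), and in both genes the REST-/- libraries lay below the WT libraries. Jund, the third JUN protein, was at -0.30 (SE 0.23) with overlapping groups. Bdnf and Nptx2, which are targets of NPAS4 in neurons, had log2 fold changes of 1.18 (SE 0.32) and 0.53 (SE 0.17) and did not pass the threshold, with p of 0.584 and 0.681 after adjustment (edgeR, quasi-likelihood). They were picked after their values were seen, from a list of primary response genes and not of NPAS4 targets. The part of NPAS4 or of REST itself in their values was not tested. Bdnf drew 80 and 63 counts in WT replicates 1 and 2 against 166 and 105 in those of REST-/-, and Nptx2 drew 753 and 768 counts in WT replicates 1 and 2 against 1005 and 838 in those of REST-/-.

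**Figure D5:**
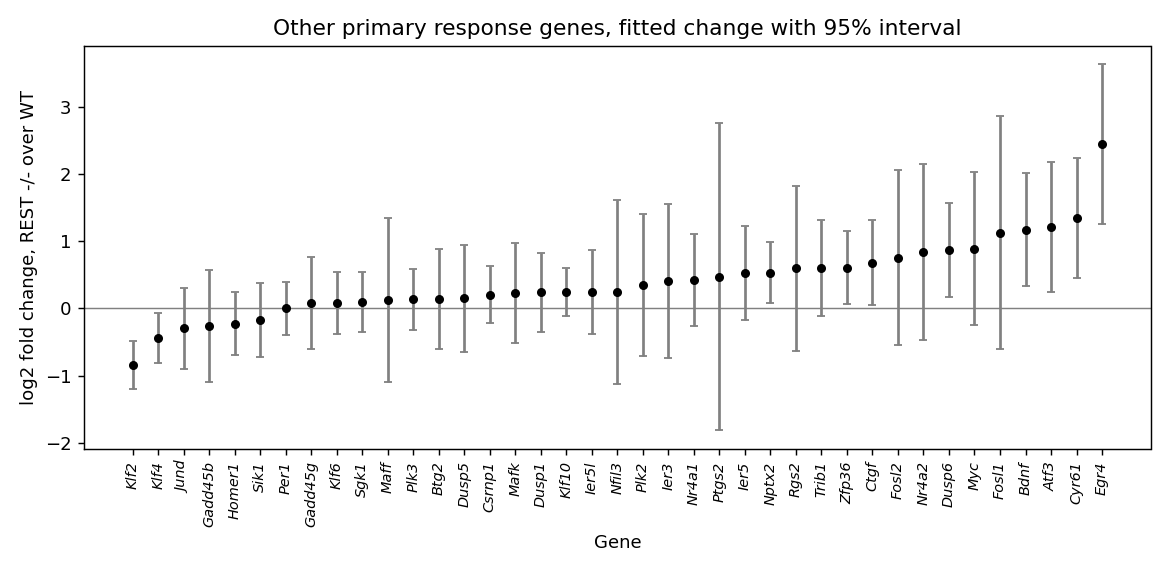
Fitted log2 fold change of REST-/- over WT with its 95% interval (not adjusted for the number of genes) for 39 other primary response genes, in order of size. Egr4 is highest at 2.45, Klf2 is lowest at -0.84, and 33 of the 39 values are above 0.

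Among 12 dimer partners, paralogs and corepressors of the members, 7 were tested and none passed the threshold in edgeR's quasi-likelihood test. With an unadjusted p under 0.05 there was 1 of the 7, Npas1, against 6.71% of all tested genes. DESeq2 and both forms of edgeR's exact test called Npas1, against 1.54%, 1.51% and 2.22% of all tested genes. Npas1, a paralog of Npas4 that acts in inhibitory neurons, drew 43 and 45 counts in WT replicates 1 and 2 against 198 and 182 in those of REST-/-. Its log2 fold change was 2.37 (SE 0.30), and its p was 0.147 after adjustment (edgeR, quasi-likelihood). Arnt2, the partner of NPAS4 in neurons, was present in ESCs at 11.4 and 18.4 CPM in WT and 12.3 and 16.6 CPM in REST-/- libraries, a log2 fold change of -0.047 (SE 0.33). Nab1 and Nab2, the corepressors of EGR proteins, had log2 fold changes of 0.50 (SE 0.31) and -0.40 (SE 0.35). Batf3 was at 0.18 (SE 0.57) and Atf2, a partner of JUN, at -0.0030 (SE 0.35).

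Upstream of the immediate early genes stand SRF with its ETS and MRTF cofactors, CREB with its CRTC coactivators, the MEF2 factors and the ERK cascade. Of 25 genes for these regulators, 24 were tested, and none passed the threshold in edgeR's quasi-likelihood test, in DESeq2 or in either form of the exact test. With an unadjusted p under 0.05 there was 1 of the 24, Elk1, an ETS cofactor of SRF, against 6.71% of all tested genes. It had 60.1 and 69.1 CPM in WT and 38.2 and 49.4 CPM in REST-/- libraries. Its log2 fold change was -0.56 (SE 0.20), and the p after adjustment was 0.727 (edgeR, quasi-likelihood). Mef2b was highest at 0.63 (SE 0.91), with libraries of one genotype farther apart than the genotypes, followed by the ETS genes Elk3 at 0.27 (SE 0.19) and Elk4 at 0.27 (SE 0.23). Crem, a CREB relative, and Rps6ka3, a kinase below ERK, were at -0.36 (SE 0.28) and -0.31 (SE 0.16). The median of the list was 0.063.

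The upstream letters of the members were searched for the sites of these regulators. RefSeq promoter windows of GRCm38.p6, from 250 bases before to 50 after a start, were at hand for Npas4, Fos, Fosb, Jun, Junb and Egr2, which are 6 of the 10 members. They made 10 windows, of which 5 were of Egr2. The cAMP response element (TGACGTCA), the CArG box bound by SRF, the AP-1 site (TGACTCA or TGAGTCA) and the EGR site (GCGTGGGCG or GCGGGGGCG) were searched on both strands. They were present in 1.79%, 1.63%, 5.2% and 3.47% of all 32851 windows. CArG boxes were found 72 bases before each of a pair of Egr2 starts, with different letters, and an EGR site 50 bases before the start of Fosb, each given with 10 bases to either side and the motif in capitals. The Egr2 windows are chr10:67537316-67537615 and chr10:67537619-67537918 on the plus strand, the latter box being shared by overlapping windows of later starts, and the Fosb window chr7:19309996-19310295 on the minus strand, all in GRCm38.p6.

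Egr2 CArG box, first window: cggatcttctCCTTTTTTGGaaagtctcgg
Egr2 CArG box, second window: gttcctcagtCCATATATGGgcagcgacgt
Fosb EGR site: tgacgcaagcGCGGGGGCGggtcccggag

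The windows of Npas4, Fos, Jun and Junb held none of these letters. Only full matches inside the windows were searched, so sites farther from a start or with other letters are not covered.

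For Npas4, Fos and Egr1, the genes with the most similar profile were found by the Euclidean distance between values of log2(CPM + 0.5) over the 4 libraries, each centred on its own mean. Nearest to Npas4 were Gm6724 (distance 0.184), Nrsn1 (distance 0.215), which encodes a neuronal membrane protein, and Gdap1l1 (distance 0.228). With WT levels of Npas4 below the added 0.5, this constant largely sets its profile, and the fitted log2 fold changes of the 3 genes were 7.04, 3.07 and 2.87, against 5.15 for Npas4. Gm6724 drew 1 and 0 counts in WT replicates 1 and 2 against 67 and 70 in those of REST-/-. Its WT libraries were thus below the floor of 3 counts, and the size of its fold change rests on no measured WT level. Nrsn1 drew 66 and 60 counts in WT replicates 1 and 2 against 445 and 434 in those of REST-/-, and Gdap1l1 drew 105 and 126 counts in WT replicates 1 and 2 against 673 and 733 in those of REST-/-. Nearest to Fos were Cpeb4 (distance 0.0292), Samd5 (distance 0.0709) and Prr22 (distance 0.0730), and nearest to Egr1 were 4930578N16Rik (distance 0.0384), 1700030C10Rik (distance 0.0706) and BC080695 (distance 0.0883). Cpeb4, which encodes an RNA-binding regulator of translation, drew 227 and 128 counts in WT replicates 1 and 2 against 280 and 108 in those of REST-/-, with the high values in replicate 1 of each genotype as for Fos. No other immediate early gene was among these 9 neighbours, and profiles over 4 libraries of 2 lines do not identify a shared control.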

How the data were processed

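RNA-seq libraries of total RNA were made from 2 WT (N6) and 2 REST-/- (N8) mouse ESC cultures with the Illumina TruSeq kit and pooled for sequencing. The submitters' processing notes name Subread, featureCounts and mm9, and the authors deposited whole-number counts per Entrez gene without normalization. The gene annotation and the strand setting are not given in the sources used here. Rows without a gene identifier (368) held no values and were left out. Replicates are stated to be biological, but how the cultures were separated is not, so p-values measure the spread between these libraries.

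The counts were analysed in R 4.3.3 with edgeR 4.0.16 (TMM, filterByExpr, quasi-likelihood test on genotype, prior count 0.125, Benjamini-Hochberg adjusted p under 0.05). Standard errors were obtained from the fitted coefficient and its F statistic. DESeq2 1.42.0 and the alternatives named in the closing section were also run. Positions, exon lengths and RE1 matches came from GENCODE M1 on NCBIM37 (mm9), with Python 3.11.15 and numpy 2.4.6. The scripts were tested on simulated data. Members and lists were chosen with earlier results of these data known. Outside the members, genes named are the 3 highest and 3 lowest of a list by log2 fold change and the 3 nearest profiles, and Bdnf, Nptx2, Lum, Col1a2, Twist2, Pou5f1 and Rps6ka2 were chosen after their values were seen. Gm6724 and Prr22 are RefSeq names for identifiers without a symbol in the table.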

Additional observations from a re-analysis of the deposited data

How the results depend on the processing

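Npas4 kept its direction in all 12 alternatives that could be fitted. It passed the threshold without the filter on low counts, in DESeq2, in both exact tests and with the replicate number as a block. With other scaling or a larger prior count it did not. Of 115 values over the 9 tested members, 97 kept direction and side of the threshold and 8 changed sign. The others, of Npas4 and 1 of Junb, passed it with the same direction. The 115 include the fits with 1 library left out, which are no added support. The number of genes past the threshold over the whole table, 9, became 53 without a filter on low counts, 3 with at least 10 counts in every library, 238 in DESeq2, 233 (tag-wise dispersion) and 343 (common dispersion) in the exact tests of edgeR, and 60 to 113 when 1 library was left out. With 1 library left out, the lone library of a genotype is assumed to vary like those of the other. The number of members past it, 0, became 1 (Npas4) without the filter, in DESeq2, in both exact tests and with any 1 library left out. For the other primary response genes, 0 became 2 in DESeq2 and in each exact test and lay between 0 and 1 with 1 library left out. The median of the members, 0.35 over all 10 with Egr3 taken from the fit without a filter, lay between -0.16 (9 members fitted, without REST-/- replicate 1) and 0.62 (10 members fitted, without REST-/- replicate 2) with 1 library left out. Changes of sign came with 1 library left out: Fos ranged from -0.34 to 0.86, Jun from -0.042 to 0.36, Egr1 from -0.29 to 0.84, Egr2 from -0.72 to 0.40 and Arc from -0.23 to 0.11. The cause was not tested. With at least 10 counts in every library, Npas4 and Egr2 could not be fitted.

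With the replicate number as a block, 2621 of the 15444 tested genes passed the threshold (1308 higher and 1313 lower), among them 2 members, Npas4 (adjusted p = 0.000194) and Junb (adjusted p = 0.00174), 17 other primary response genes, 3 upstream regulators (Elk1, Rps6ka2 and Rps6ka3), Npas1, 5 fibroblast, 7 primitive endoderm, 5 pluripotency and 3 neural markers and 3 heat shock genes, all in edgeR's quasi-likelihood test. No source links libraries of the same number, although their deviations from the group mean correlated over tested genes (r = 0.807 for replicate 1). Scaling moved the median of all genes by less than 0.1 on the log2 scale. Npas4 in WT, Egr2 and Egr3 had at most 25 counts in any library, which limits their precision.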
